A study of Mus musculus with 547 samples.

Results

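Metallothioneins 1 and 2 (Mt1, Mt2), the metal-sensing transcription factor Mtf1, the copper proteins Cp, Atp7a and Atp7b and the zinc transporters Slc30a1 and Slc39a14 are 8 of the 40824 genes counted in developing mouse liver cells. They were taken by gene symbol, and all 8 were found in the bulk and in the single-cell counts. The study asked when hepatoblasts turn into hepatocytes and whether the MAPK pathway promotes the maturation of cholangiocytes, the epithelial cells of the bile ducts. Bulk RNA-seq covered cells sorted for DLK, a surface protein of hepatoblasts and fetal hepatocytes, on the 9 days between E10.5 and E18.5, with 2 libraries each (18 libraries). Single-cell RNA-seq covered 447 cells picked from fetal livers between E10.5 and E17.5, from a DLK+ gate or a gate for the epithelial surface protein EpCAM, each with a putative type given by the submitters. A further 82 cells came from explants of E12.5 liver lobes kept for 2 days with vehicle (control), with 0.5 µM TPPB, an agonist of protein kinase C, with 10 µM U0126, which blocks the kinases MEK1 and MEK2, or with both.

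The labels give the animals as fetal mice and give no genotype or strain that separates the groups. All explants, controls included, shared a culture medium with serum, epidermal growth factor and an insulin, transferrin and selenium supplement. Sorted cells were numbered in sets, and the labels do not say what a set is, so the p-values below measure only the spread between sets or libraries, which may be technical. DLK+ embryo cells were labelled hepatoblast/hepatocyte. EpCAM+ embryo cells carried that label or the label cholangiocyte.

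Metallothioneins are small cysteine-rich proteins of the cytosol that bind zinc and copper, and fetal and newborn liver is known for storing both metals on them. Mtf1 senses free zinc in the cell and switches on Mt1, Mt2 and Slc30a1 through short metal response elements in their promoters. Slc30a1 moves zinc out of the cell across the plasma membrane and Slc39a14 moves zinc, iron and manganese in. Atp7a and Atp7b are the copper-pumping ATPases mutated in Menkes and Wilson disease, and Cp encodes ceruloplasmin, the copper-carrying ferroxidase that liver secretes into plasma.

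The promoters of Mt1, Mt2 and Slc30a1 are shown because these genes are the textbook targets of Mtf1 and because Mt1 and Mt2 varied together across the libraries below. Each is 280 bases, from 250 bases before the annotated start to 30 bases after it, from the RefSeq promoters on GRCm38.p6, written 5′ to 3′ on the strand of the gene. Capitals mark each match to TGCACNC or TGCGCNC, the core of the metal response element, on either strand. No stretch can match both forms.
The stretches are chr8:94178839-94179118 for Mt1, chr8:94172368-94172647 for Mt2 and chr1:191906531-191906810 for Slc30a1, all on the plus strand.
Mt1: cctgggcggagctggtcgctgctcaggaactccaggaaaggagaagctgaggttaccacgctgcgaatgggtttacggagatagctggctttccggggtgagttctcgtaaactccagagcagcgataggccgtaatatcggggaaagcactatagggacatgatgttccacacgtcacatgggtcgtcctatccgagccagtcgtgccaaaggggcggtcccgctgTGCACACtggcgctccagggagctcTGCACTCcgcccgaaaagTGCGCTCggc
Mt2: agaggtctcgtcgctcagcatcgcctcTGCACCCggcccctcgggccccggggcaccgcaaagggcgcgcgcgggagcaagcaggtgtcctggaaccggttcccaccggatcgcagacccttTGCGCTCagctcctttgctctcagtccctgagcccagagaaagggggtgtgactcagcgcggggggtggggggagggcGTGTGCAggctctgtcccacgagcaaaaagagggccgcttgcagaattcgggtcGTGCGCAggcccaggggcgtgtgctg
Slc30a1: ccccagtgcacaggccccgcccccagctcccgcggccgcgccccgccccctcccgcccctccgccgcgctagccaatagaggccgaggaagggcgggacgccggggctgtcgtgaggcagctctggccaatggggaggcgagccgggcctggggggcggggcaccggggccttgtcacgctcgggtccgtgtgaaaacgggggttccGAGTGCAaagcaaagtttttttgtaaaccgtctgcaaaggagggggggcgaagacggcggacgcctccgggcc
Mt1 held 3 matches, whose first bases lie at -23, 3 and 21 from the start, and Mt2 held 4, at -223, -128, -50 and 5. The start here is that of the RefSeq promoter, which differs from the gene start given below. Matches outside the 300 bases of a promoter were not sought. Slc30a1 held 2, at -43 and at 31, the latter just past the printed stretch. Of the 7 genes with a promoter in the table, Atp7a held 2 matches, at -132 and -120, Atp7b held 1, at -157, and Cp and Mtf1 held none. Among 32851 promoters of the same 300 bases, 25.7% held at least 1 match, 6.14% at least 2, 1.31% at least 3 and 0.295% at least 4. A match is a stretch of letters and not a measured binding site.

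On GRCm38, Mt1 (ENSMUSG00000031765, chr8:94179082-94180327) and Mt2 (ENSMUSG00000031762, chr8:94172664-94173568) are neighbours on the plus strand of chromosome 8. Atp7b (ENSMUSG00000006567) lies elsewhere on that chromosome, at chr8:21992785-22060305 on the minus strand. Mtf1 (ENSMUSG00000028890) is at chr4:124802104-124849800, Cp (ENSMUSG00000003617) at chr3:19957054-20009145, Atp7a (ENSMUSG00000033792) at chrX:106027276-106124926 and Slc30a1 (ENSMUSG00000037434) at chr1:191906767-191913247, all on the plus strand. Slc39a14 (ENSMUSG00000022094) is at chr14:70303469-70351425 on the minus strand. Exons of Mt2, Mtf1, Cp and Slc30a1 overlap exons of a gene on the other strand, and whether the counting used strand is not given in the sources used here, so reads of the partners may be mixed.

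The bulk libraries held 14385574 to 22791119 reads and the cells 763480 to 2111839, with a median of 1098050. For tests between groups, cells of a group and set were summed, giving 42 embryo sums of 2338674 to 28130886 reads and 12 explant sums of 1935026 to 13737444. Levels are given as CPM, read counts scaled to a common library size after TMM normalization, which sets the libraries by the bulk of genes, and as TPM where genes of different length are compared. TMM scaling matters here. Scaling by library totals instead moved the median log2 difference of all genes from -0.02 to -1.45 in bulk E18.5 against E10.5 and from -0.13 to -1.27 in DLK+ cells E17.5 against E10.5. Calls lower made up 49.9% of all calls in the bulk comparison with TMM and 83.3% with library totals. A call below is an adjusted p under 0.05 from edgeR's quasi-likelihood test with Benjamini-Hochberg adjustment over all genes tested. Differences are on the log2 scale with their standard error (SE). Where the values of groups are said not to overlap, the share of all genes that do so was not counted.

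Bulk DLK+ cells gained both metallothioneins over 3 days. Both stood lower at E18.5 than at E13.5, a difference that was not tested, and no day step after E13.5 was called. Mt1 stood at 9.65 and 10.9 CPM in the 2 libraries at E10.5. E11.5 had 199 and 200 CPM, E12.5 had 749 and 1258 and E13.5 had 2973 and 2917. From E14.5 to E16.5 its 6 libraries lay between 2245 and 2969 CPM, and then came 2053 and 2201 at E17.5 and 1747 and 902 at E18.5. Every library from E11.5 onwards was above both E10.5 libraries, and the E18.5 pair was below all libraries from E13.5 to E17.5. Mt2 took the same course, from 4.91 and 4.76 CPM at E10.5 through 153 and 161, and 577 and 1054, to 2632 and 2498 at E13.5. It reached 2878 and 2329 at E14.5, and had 1196 and 478 at E18.5. As a share of all reads, the pair went from 0.00224% and 0.00249% at E10.5 to between 0.485% and 0.703% at E13.5 and E14.5, and to 0.162% and 0.0853% at E18.5. In bulk RNA, fewer cells of a type and less RNA per cell cannot be told apart.

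**Figure D1:**
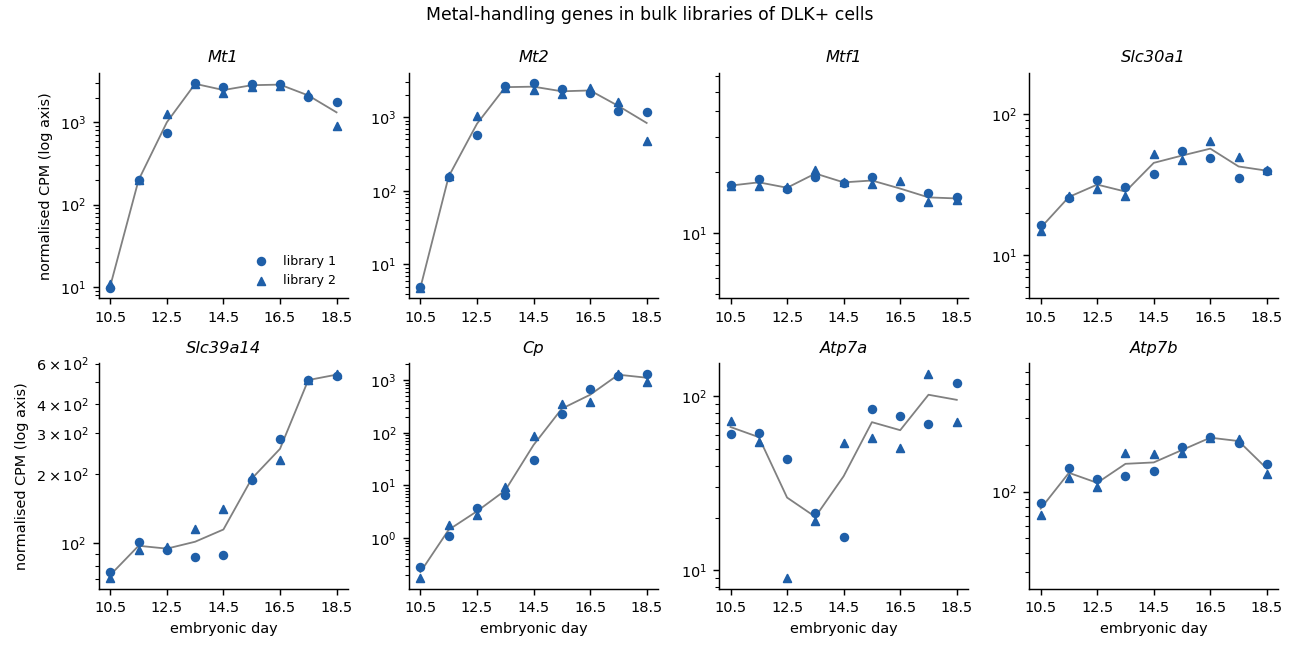
Level of each of the 8 genes (TMM-scaled CPM, log axis) by embryonic day in bulk DLK+ cells, with circles for library 1, triangles for library 2 and a grey line through the mean. Mt1 and Mt2 climb to E13.5 and bend down after E16.5, Cp is below 2 CPM until E11.5 and above 900 CPM from E17.5, and Mtf1 stays between 14.3 and 20.6 CPM; with library totals in place of TMM scaling, Atp7b is lower at E18.5 than at E10.5 and Slc30a1 is not called.

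Between E18.5 and E10.5, 65.1% of the 15275 genes tested were called, and 32.6% were called higher. Of the 8 genes, 6 were higher at E18.5 and none lower. Mt1 was higher by 7.01 ± 0.36 (SE, n = 2 against 2, adjusted p = 6.9e-10) and Mt2 by 7.43 ± 0.46 (adjusted p = 3.4e-09). Day by day, Mt1 rose by 4.28 ± 0.31 at E11.5 (adjusted p = 3.3e-06), where 9.55% of genes were called higher, and Mt2 by 5.02 ± 0.41 (adjusted p = 5.5e-06). Both rose again at E12.5, where 0.426% of genes were called higher, Mt1 by 2.33 ± 0.29 (adjusted p = 0.0017) and Mt2 by 2.38 ± 0.36 (adjusted p = 0.01). In the same libraries 15 dissociation stress genes summed to 336 and 211 CPM at E11.5, to 2362 and 1526 at E12.5 and to 1677 and 261 at E13.5. Of these 15, 1 was called at the E12.5 step, Btg2 (2.75 ± 0.47, adjusted p = 0.021), with a list median of 2.75, and 2 were lower at the E13.5 step, and their part in the metallothionein steps was not tested. At E13.5, with 5.07% of genes called higher, the step was 1.55 for Mt1 (adjusted p = 0.003) and 1.65 for Mt2 (adjusted p = 0.007). No step after E13.5 was called for either gene, and the E18.5 step of -0.68 for Mt1 had an adjusted p of 0.15. Some steps rested on single libraries: without E11.5 library 1 or 2 the E12.5 step had adjusted p of 0.063 and 0.094 for Mt1 and 0.21 and 0.23 for Mt2, which also missed without E12.5 library 2 (0.13), and the E13.5 step of Mt2 missed without E12.5 library 1 (0.11) and with the trend on GC content removed (0.061).

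Mtf1, the activator of the metallothionein genes, did not follow them. Its 18 libraries ranged from 14.3 to 20.6 CPM, with 17.3 and 17.1 at E10.5 and 15.1 and 14.6 at E18.5. The difference of -0.21 ± 0.15 was not called (adjusted p = 0.23), nor was any day step. With library totals the value was -1.64 (adjusted p = 9.2e-07), or -0.19 relative to the median of all genes. Over the 18 libraries the Pearson r of Mt1 with Mtf1 was 0.002, against 0.996 with Mt2, on the log2(CPM + 1) scale. These libraries share their stages, so the coefficients describe a shared time course.

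Ceruloplasmin came later than the metallothioneins and went further. Cp had 0.281 and 0.173 CPM at E10.5 (9 and 5 reads). E11.5 had 1.10 and 1.78 CPM, E12.5 had 3.71 and 2.76 and E13.5 had 6.60 and 9.53. It then had 30.9 and 86.2 CPM at E14.5, 229 and 346 at E15.5, 673 and 381 at E16.5, 1208 and 1327 at E17.5 and 1308 and 914 at E18.5. The pairs of libraries do not overlap between neighbouring days until E17.5 and E18.5. Cp was higher by 12.20 ± 0.67 at E18.5 than at E10.5 (adjusted p = 1.4e-09). It rose by 2.63 ± 0.74 at E11.5 (adjusted p = 0.029), by 2.86 ± 0.43 at E14.5 (adjusted p = 8.1e-04), where 15.4% of genes were called higher, by 2.30 ± 0.41 at E15.5 (adjusted p = 0.038), where 0.190% were, and by 1.27 at E17.5 (adjusted p = 0.046), where 5.89% were. At E16.5, edgeR called no gene at all, with 851 at an unadjusted p under 0.05 and 7 called by DESeq2. Only the E14.5 step of Cp passed without each library in turn: that of E11.5 missed without E10.5 library 1 or 2 or E11.5 library 2 (adjusted p 0.097 to 0.21), that of E15.5 without E14.5 library 1 or E15.5 library 2 (0.69 and 0.4), and that of E17.5 without E16.5 library 2 or either E17.5 library (0.13 to 0.35) and with library totals (0.92, adjusted p = 0.066) or DESeq2 (0.058).

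Of the copper pumps, Atp7b was called between E18.5 and E10.5 and Atp7a was not. Atp7a had 60.6 and 72.4 CPM at E10.5, 43.4 and 9.01 at E12.5, 21.4 and 19.2 at E13.5, 15.47 and 54.0 at E14.5 and 120 and 71.0 at E18.5. Its libraries of 1 day differed by up to several fold, and the difference of 0.52 ± 0.58 between E18.5 and E10.5 was not called (adjusted p = 0.45). Atp7b, the pump that loads copper onto ceruloplasmin in liver, had 84.6 and 70.6 CPM at E10.5, 142 and 124 at E11.5, 227 and 222 at E16.5 and 152 and 130 at E18.5. Its E10.5 pair was below every later library. With TMM scaling Atp7b was higher at E18.5 by 0.86 ± 0.18 (adjusted p = 7.6e-04), while library totals turned it to -0.57 (adjusted p = 0.0051), which is 0.88 above the median of all genes on that scale. Its step at E11.5 was 0.77 (adjusted p = 0.011) and missed without E10.5 library 2 (adjusted p = 0.2) or E11.5 library 1 (0.12).

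Both zinc transporters were higher at E18.5 with TMM scaling, and with library totals only the importer was. Slc39a14 had 75.2 and 70.5 CPM at E10.5, stayed between 87.4 and 140 from E11.5 to E14.5, and then had 187 and 193, 282 and 231, 510 and 509, and 532 and 543 at E15.5, E16.5, E17.5 and E18.5. All libraries from E15.5 onwards were above all earlier ones. It was higher by 2.88 ± 0.21 (adjusted p = 1.5e-08) at E18.5, still higher with library totals (1.46, adjusted p = 6.6e-07), and its 1 called step was 0.99 at E17.5 (adjusted p = 0.0035; 0.073 without E16.5 library 2). Slc30a1 had 16.4 and 14.95 CPM at E10.5, 25.6 and 26.2 at E11.5, 49.1 and 64.4 at E16.5 and 39.5 and 39.8 at E18.5. With TMM scaling it was higher at E18.5 by 1.34 ± 0.20 (adjusted p = 3.5e-05), while library totals gave -0.08 (adjusted p = 0.74), which is 1.36 above the median of all genes. Its steps at E11.5 (0.72, adjusted p = 0.025) and E14.5 (0.67, adjusted p = 0.021) both missed when single libraries were left out: the first without any 1 of the 4 libraries (adjusted p 0.11 to 0.26) and with library totals (0.54, adjusted p = 0.14), and the second without E13.5 library 1 or 2 or E14.5 library 2 (0.059 to 0.28) and with the trend on GC content removed (0.39, adjusted p = 0.22). The calls of the 6 genes between E18.5 and E10.5 held without each of the 4 libraries. At E18.5 against E17.5, where 7.52% of genes were called, none of the 8 was.

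Compared per length, the metallothioneins stood far above the other 6 genes from E11.5 onwards. Mean TPM of Mt1 was 73.2 at E10.5, 11905.8 at E13.5 and 2640.8 at E18.5, and that of Mt2 was 33.4 at E10.5, 10849.0 at E14.5 and 1607.5 at E18.5. Among all genes Mt1 ranked 2463rd at E10.5, 8th at E13.5 and 37th at E18.5. Mt2 ranked 5057th, 11th and 56th on the same days. Cp ranked 17217th at E10.5 with a mean of 0.190 TPM and 300th at E17.5 with 327.8. At E18.5 the order by mean TPM was Mt1 and Mt2, whose library ranges overlapped, then Cp (264.7), Slc39a14 (115.7), Atp7b and Atp7a (23.7 and 21.03, overlapping), Slc30a1 (8.33) and Mtf1 (2.14). TPM is a share of the library, so Atp7b went from 45.7 TPM at E10.5 to 23.7 at E18.5 on this scale, in the direction of its change with library totals.

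Mt1 and Mt2 differed by day in their ratio as well as their level. The ratio of Mt1 to Mt2 in TPM was 2.03 and 2.36 in the 2 libraries at E10.5, 0.967 and 0.993 at E14.5 and 1.504 and 1.944 at E18.5. In bulk, Mt2 was thus slightly the higher of the pair at E14.5 only, in both libraries. By likeness of course over the 18 libraries, among 8820 other genes whose mean reached 10 CPM, Mt1 was nearest to Ikbke (r = 0.9898), Apoc2 (0.988) and Slc17a9 (0.986). Mt2 was nearest to Ikbke (0.989), Rtp3 (0.984) and Gstt2 (0.983), and Cp to Mat1a (0.993), Dnase2b (0.992) and Slc2a9 (0.992). Within the 8 genes, Cp had an r of 0.928 with Slc39a14 and of 0.662 with Mt1.

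The wider families of metal genes moved in both directions between E10.5 and E18.5, where 65.1% of all genes were called and 32.6% called higher. Of 8 other zinc exporters of the Slc30 family tested, 1 was higher, Slc30a10, a manganese exporter (6.04 ± 0.31), and none lower, with a median of 0.08. Of 12 other Slc39 importers, 5 were higher and 2 lower, with a median of 0.14: Slc39a5 (3.80 ± 0.28) and Slc39a4 (3.39 ± 0.26) were higher and Slc39a10 (-3.67 ± 0.33) and Slc39a6 (-2.75 ± 0.27) lower. Of 18 other copper genes, 11 were higher and 2 lower, with a median of 0.82, led by the metalloreductases Steap4 (5.53 ± 0.44) and Steap3 (4.89 ± 0.21), by Cutal (3.97 ± 0.25) and by Ccs, the copper chaperone of superoxide dismutase (3.75 ± 0.26). The median over all genes was -0.02. With library totals the counts became 1 higher and 6 lower for Slc30, 2 and 7 for Slc39 and 5 and 8 for the copper genes, and the medians -1.34, -1.29 and -0.60, so the direction of each median turned, while the genes named here kept theirs. Other genes reported as Mtf1 targets split, with 3 higher and 2 lower of 5 tested: Ndrg1 (4.00 ± 0.29), the iron exporter Slc40a1 (3.55 ± 0.23), Slc39a10 (above) and Gclc (1.61 ± 0.18) were the largest. Of these Gclc missed with library totals (0.20, adjusted p = 0.38). The brain metallothionein Mt3 fell below the filter on low counts, and Mt4 (-3.09 ± 2.37) was not called (adjusted p = 0.27).

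Acute phase and glucocorticoid response genes, of programmes known to act on metallothioneins and ceruloplasmin, were mostly higher at E18.5 than at E10.5 too. Of all genes, 32.6% were called higher. Of 15 acute phase genes tested, 14 were higher at E18.5 and none lower (median 6.88), with summed levels of 1088 to 1257 CPM at E10.5 and 70767 to 89614 at E18.5. Of 9 glucocorticoid response genes, 8 were higher and none lower with TMM (5 and 1 with library totals). Of 8 oxidative stress genes 5 were higher and 1 lower with TMM (2 and 4 with library totals), and of 15 dissociation stress genes 7 were higher and none lower (4 and 0). Their day steps were not all those of the metallothioneins. At E18.5 against E17.5, Serpina3n (2.35, adjusted p = 0.0021) and Tat (3.77, adjusted p = 1.5e-05) were called higher and Saa4 (-0.79, adjusted p = 0.018) lower. Neither metallothionein nor Cp was called there. The part of these programmes in the result was not tested. Other sorted-in cell types moved too: summed markers of stellate and mesenchymal cells stood at 798 to 1027 CPM at E10.5 and 9.15 to 110 at E18.5, with 9 of 10 genes lower. Macrophage markers stood at 6.35 to 11.1 and 108 to 124 CPM, with 5 of 8 genes tested higher, and other blood cell markers at 7.97 to 8.53 and 60.7 to 156, with 7 of 7 higher with TMM (3 with library totals). Of the macrophage markers up to 4 were at 0 at E10.5 and none at E18.5. The part of these cells in the bulk levels was not tested. In the sums of single DLK+ cells below, picked one by one, the macrophage markers summed to at most 12.0 CPM and the stellate markers to at most 16.6.

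Single DLK+ cells also gained metallothioneins and ceruloplasmin with the days. Mt1 stood at 24.3, 28.3 and 17.1 CPM in the 3 sets at E10.5, and E11.5 had 896, 578 and 1337. The 2 sets of E12.5 had 2923 and 1211 CPM and the 3 of E13.5 had 5663, 3761 and 5370. On later days E14.5 had 3767, 7064 and 6366 CPM, E15.5 had 7763, 5292 and 6557 and E17.5 had 5487, 2878, 7494 and 4953. The E10.5 sets were below every later set, and sets from E13.5 onwards overlapped. Mt2 had 2.23, 3.51 and 1.81 CPM at E10.5, 257, 106 and 380 at E11.5, 1744, 1073 and 1679 at E13.5 and 1378, 525, 1936 and 864 at E17.5. Cp had 7 reads in set 1 and none in sets 2 and 3 at E10.5, 15.1, 5.84 and 40.1 CPM at E13.5, 168, 65.5 and 141 at E15.5 and 996, 1492, 805 and 1433 at E17.5.

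**Figure D2:**
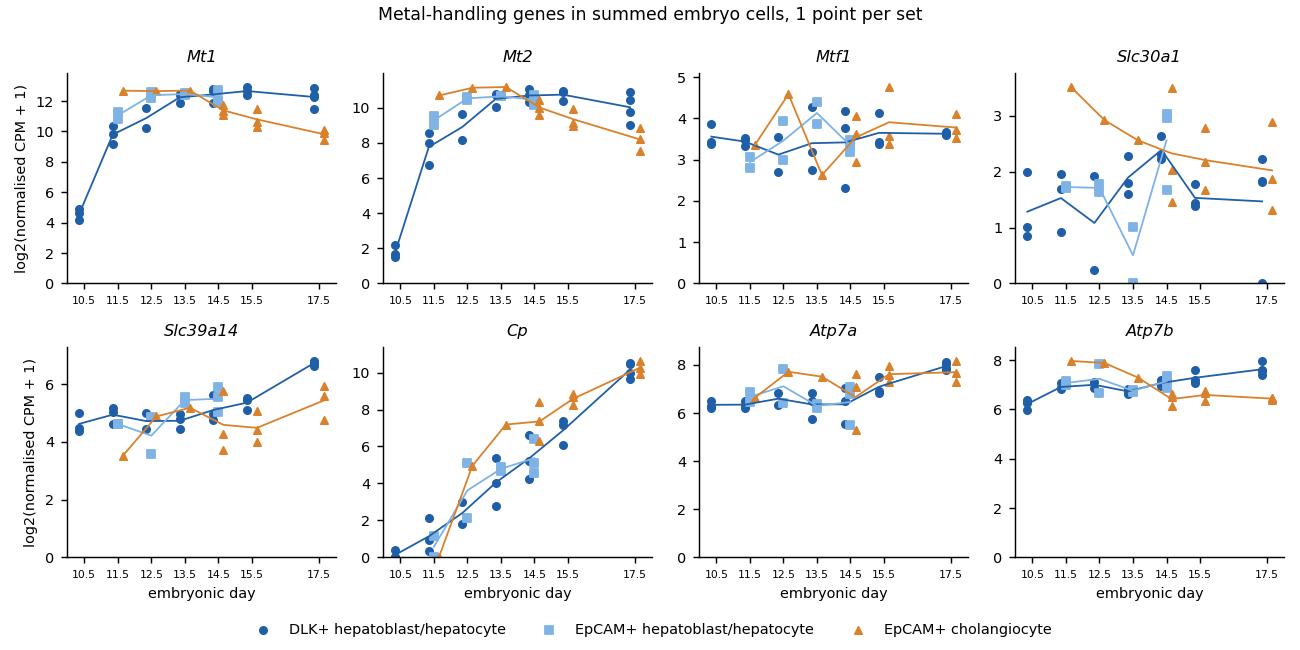
Level of each of the 8 genes, as log2(TMM-scaled CPM + 1), in sums of single embryo cells by embryonic day, 1 point per set and a line through the group mean, in separate colours for DLK+ hepatoblast/hepatocyte, EpCAM+ hepatoblast/hepatocyte and EpCAM+ cholangiocyte cells. In cholangiocytes Mt1, Mt2 and Atp7b lie below DLK+ cells by E17.5, while Cp overlaps them; with library totals in place of TMM scaling, only Mt1 of these is called at E17.5.

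Between E17.5 and E10.5, 29.5% of 16838 genes were called in the DLK+ sums and 14.2% called higher, and 6 of the 8 genes were higher and none lower. Mt1 was higher by 7.81 ± 0.45 and Mt2 by 8.85 ± 0.58 (n = 4 against 3 sets). Cp was higher by a fitted 13.42 ± 1.26, a value that depends on how 2 sums without reads are handled. Slc39a14, at 21.5, 19.9 and 30.8 CPM at E10.5 and 108, 111, 104 and 97.2 at E17.5, was higher by 2.13 ± 0.39 (adjusted p = 7.4e-05). Atp7a, at 73.5, 77.0 and 90.6 CPM and then 218, 234, 277 and 261, was higher by 1.62 ± 0.41 (adjusted p = 0.0026), and Atp7b, at 83.1, 76.6 and 62.02 and then 166, 248, 189 and 191, by 1.43 ± 0.21 (adjusted p = 1.6e-06). In all 3 genes the E10.5 and E17.5 sets did not overlap, as in 6 of the 8 genes. With library totals Atp7a (0.47, adjusted p = 0.34) and Atp7b (0.27, adjusted p = 0.21) missed the threshold and Slc39a14 kept it (0.96, adjusted p = 0.035). No call among the 6 was lost when a set was left out. Mtf1 (0.06 ± 0.46) and Slc30a1 (0.43 ± 1.01) were not called, and Slc30a1 had only 0 to 5.26 CPM in DLK+ sums of any day.

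By step, Mt1 rose by 5.33 at E11.5 against E10.5 (adjusted p = 3.4e-10) and Mt2 by 6.60 (adjusted p = 1.1e-09), where 2.11% of genes were called higher. At E13.5 against E11.5, with 0.410% of genes called higher, Mt1 rose by 2.40 and Mt2 by 2.60, and Cp by 3.598 (adjusted p = 0.049), a call lost without any set but E13.5 set 2 (adjusted p 0.072 to 0.33), with library totals (3.44, adjusted p = 0.052) and with RLE factors (0.057). No member was called at E15.5 against E13.5, where 1.24% of genes were, and Cp (2.65) had an adjusted p of 0.075. At E17.5 against E15.5, with 2.57% called higher, Cp rose by 3.24 (adjusted p = 0.0056; 0.056 without E15.5 set 3) and Slc39a14 by 1.38 (adjusted p = 0.025; 0.057 to 0.15 without E17.5 set 2 or any E15.5 set, and 0.13 with library totals). Between E17.5 and E10.5, where 29.5% of all genes were called, other metal genes in these sums again split. With TMM, 8 copper genes were higher and 2 lower of 18 (5 and 9 with library totals). The counts were 3 and 2 of 12 Slc39 importers (3 and 6) and 1 and 0 of 8 Slc30 exporters (1 and 4). Slc39a5 (3.65 ± 0.35), Slc39a4 (2.72 ± 0.29), Ccs (3.19 ± 0.25), Steap3 (4.34 ± 0.50) and Slc40a1 (3.99 ± 0.27) were higher under both scalings. Of 14 acute phase genes 13 were higher and none lower, also under both.

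From cell to cell, metallothionein levels were widely spread at E11.5. In DLK+ cells the median of Mt1 was 61.8 TPM at E10.5 (n = 54, from 0 in 3 cells to 606), and 1874 at E11.5 (n = 36, from 26.8 to 14755.5). The median then was 8718 (E12.5), 14295 (E13.5), 18410 (E15.5) and 8288 (E17.5), and on the last day the lowest of 35 cells had 3889. Mt2 had no read in 25 of 54 cells at E10.5 and in 4 of 36 at E11.5, and at least 1 read in every DLK+ cell from E12.5 onwards. At E11.5 the low cells thus lay within the range of E10.5 and the high cells within that of E13.5. Cells with much Mt1 had much Mt2: Pearson r on log2 TPM was 0.49 in the 54 DLK+ cells of E10.5, 0.75 in the 36 of E11.5 and 0.97 in the 39 of E13.5. Cells of a group share sets and library chemistry, and these coefficients are descriptions.

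**Figure D3:**
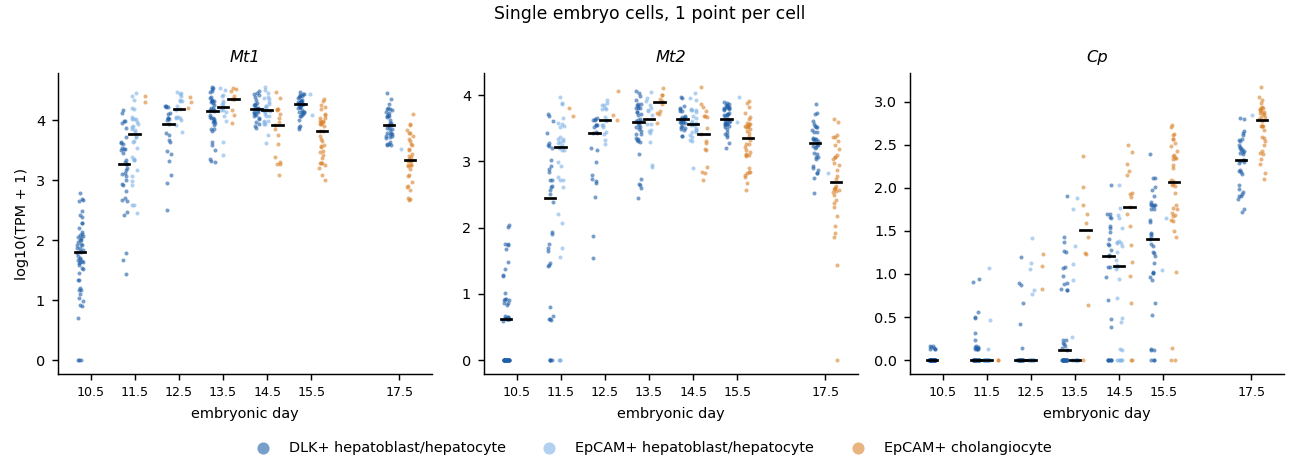
Level of Mt1, Mt2 and Cp in each embryo cell, as log10(TPM + 1), by day and group, with a black bar at the median of groups of at least 5 cells. DLK+ cells of E11.5 spread from 26.8 to 14755.5 TPM of Mt1, and Cp, without a read in 47 of 54 DLK+ cells at E10.5, has reads in all 35 at E17.5.

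The share of DLK+ cells with Cp reads was low at E10.5 and reached all cells at E17.5. Cp had no read in 47 of 54 DLK+ cells at E10.5, 20 of 36 at E11.5, 15 of 21 at E12.5, 19 of 39 at E13.5, 7 of 27 at E14.5, 3 of 39 at E15.5 and 0 of 35 at E17.5. Slc30a1 was sparse throughout, without a read in 42 of 54 DLK+ cells at E10.5 and 29 of 35 at E17.5. The copper pumps were found in nearly every cell: Atp7b had reads in all DLK+ cells of every day, and Atp7a lacked them in 2 of 39 at E13.5 and 1 of 27 at E14.5. Mtf1 lay near its limit of detection, with medians of 0.727 to 3.04 TPM, and lacked reads in 10 of 54 cells at E10.5 and 12 of 35 at E17.5. The Mt1 to Mt2 ratio in DLK+ sums was 8.30 to 11.2 at E10.5, 3.29 to 3.61 at E13.5 and 3.04 to 3.80 at E14.5. It was above that of bulk on each of these days, and the library chemistry of the 2 data sets differs.

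Cholangiocytes had less of both metallothioneins, of Atp7b and of Slc39a14 than DLK+ cells of the same days, and more Cp on average over those days. Mt1 in cholangiocyte sums stood at 2572, 3390 and 2188 CPM at E14.5, at 2808, 1232 and 1606 at E15.5 and at 954, 1097 and 694 at E17.5, each below all DLK+ sums of its day. Mt2 stood at 1023, 1419 and 774, then 989, 504 and 566, then 297, 454 and 186 CPM, and these overlapped the DLK+ sums at E14.5 only. Atp7b stood at 98.5, 89.2 and 68.5, then 100, 79.9 and 107, then 87.1, 87.9 and 81.6 CPM, all below the lowest DLK+ sum of these days (122). In the same cells, cholangiocyte markers, with Epcam among them, summed to 1746 to 10914 CPM in cholangiocytes and 38.5 to 119 in DLK+ cells. The gate and the putative type belong to these same cells, so the sums describe the groups and do not test the labels.

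On average of the 3 days (9 cholangiocyte and 10 DLK+ sums), where 35.0% of genes were called, 4 of the 8 genes were lower and 1 higher. Mt1 was lower by -1.79 ± 0.20 (adjusted p = 9.4e-09), Mt2 by -1.31 ± 0.24 (adjusted p = 4.6e-05), Atp7b by -0.86 ± 0.12 (adjusted p = 8.2e-07) and Slc39a14 by -0.80 ± 0.23 (adjusted p = 0.0057). Cp was higher by 1.22 ± 0.40 (adjusted p = 0.017; 0.99, adjusted p = 0.057, without E14.5 cholangiocyte set 3). Mtf1 (0.19 ± 0.28), Atp7a (0.26 ± 0.24) and Slc30a1 (0.64 ± 0.60) were not called. Library totals moved the median of all genes from 0.16 to 0.69, and on that scale Slc39a14 lost its call (-0.26, adjusted p = 0.39), Atp7b kept it (-0.30, adjusted p = 0.021) and Mtf1 (0.75, adjusted p = 0.034) and Atp7a (0.82, adjusted p = 0.0052) gained one. Hepatocyte markers, lower in cholangiocytes in 7 of 7 genes with TMM, still summed to 38890 to 122194 CPM in them.

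The values of single days rest on the same sums as that average. At E14.5, with 6.74% of genes called lower, Mt1 (-1.08, adjusted p = 0.036) and Atp7b (-0.65, adjusted p = 0.042) were lower, and at E15.5, with 7.73%, Mt1 (-1.80), Mt2 (-1.35, adjusted p = 0.026) and Atp7b (-0.71, adjusted p = 0.021). At E17.5, with 11.2%, Mt1 was lower by -2.51 ± 0.35 (adjusted p = 1.2e-06), Mt2 by -1.91 ± 0.41 (adjusted p = 6.2e-04), Atp7b by -1.22 ± 0.20 (adjusted p = 2.5e-05) and Slc39a14 by -1.23 ± 0.38 (adjusted p = 0.016; 0.11 without cholangiocyte set 1). Cp differed by 1.93 (adjusted p = 0.086), 1.64 (0.14) and 0.09 (1) on these days. The change in the Mt1 difference from E14.5 to E17.5, -1.43 ± 0.47, was not called (adjusted p = 0.10), in a test that called 3.21% of genes and none of the 8. The E14.5 calls missed when single sums were left out: that of Mt1 without DLK+ set 2 or 3 or cholangiocyte set 1 or 3 (adjusted p 0.1 to 0.15), that of Atp7b without any sum but cholangiocyte set 1 (0.051 to 0.18). Without set 3 in all groups of E14.5 both missed (0.22 and 0.28), as they did with RLE factors (0.055 and 0.088), and so did Mt1 with sums of at least 4 cells (0.14) and Atp7b without the filter on low counts (0.068). At E15.5, Mt2 missed without DLK+ set 1 or 4 or cholangiocyte set 3 or 4 (0.072 to 0.13) and Atp7b without set 3 of either group (0.11 and 0.12). With library totals the calls of Mt1 at E15.5 and E17.5 held, and those of Mt1 at E14.5 (adjusted p = 0.12), of Mt2 at E15.5 (0.12) and E17.5 (0.065), of Slc39a14 (0.64) and of Atp7b on all 3 days (0.2, 0.27 and 0.34) missed. On that scale the difference of Cp in cholangiocytes against DLK+ cells at E14.5 was called (2.21, adjusted p = 0.039). So were those of Cp in cholangiocytes against DLK+ cells at E15.5 (2.04, adjusted p = 0.041) and of Mtf1 in cholangiocytes against DLK+ cells at E17.5 (1.17, adjusted p = 0.048).

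**Figure D4:**
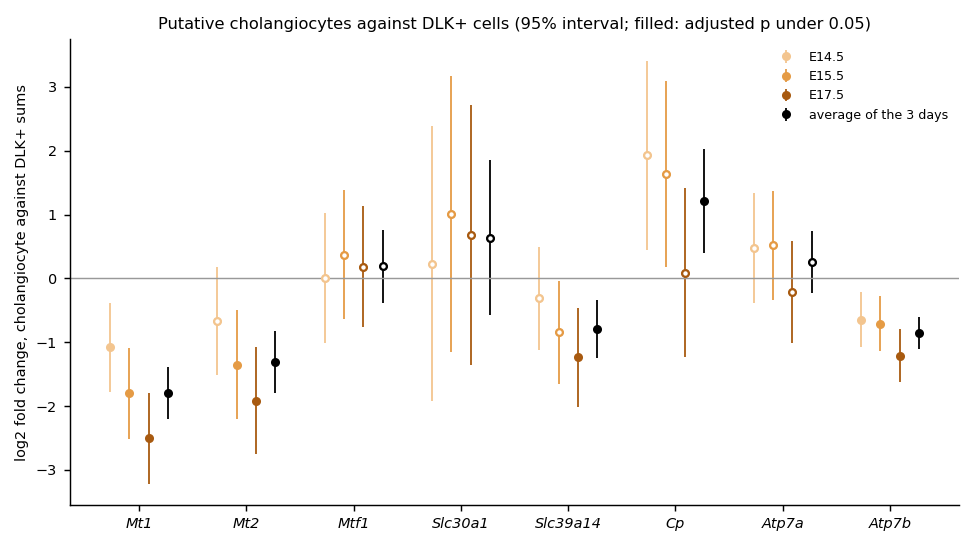
Difference of each of the 8 genes between EpCAM+ cholangiocytes and DLK+ cells (log2, with 95% intervals) on each of the 3 days and on their average, filled where the adjusted p is under 0.05 and positive where cholangiocytes are higher. Mt1, Mt2 and Atp7b are below 0 at each day and Cp is near 0 at E17.5 (0.09); with library totals in place of TMM the average of Slc39a14 and the single days of Atp7b are not called.

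Within the EpCAM+ gate at E14.5, where 6.56% of genes were called lower, cholangiocytes differed from EpCAM+ hepatoblasts in Atp7b only among the 8 genes (-0.72 ± 0.21, adjusted p = 0.023). That call missed without set 3 of either group (adjusted p = 0.11 and 0.099) or of all groups (0.27), with RLE factors (0.055) and with library totals (-0.48, adjusted p = 0.11). Mt1 stood at 3958, 4274 and 6701 CPM in these hepatoblasts, above all 3 cholangiocyte sums, with a difference of -0.87 ± 0.34 (adjusted p = 0.10). Between EpCAM+ and DLK+ hepatoblasts of E11.5 to E14.5 none of the 8 genes was called: the calls numbered 4 (0.0238%) with edgeR and 71 with DESeq2, and 826 genes had an unadjusted p under 0.05, and Mt1 differed by 0.64 ± 0.19 (adjusted p = 0.47).

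Within cholangiocytes, the metallothioneins fell and ceruloplasmin rose between E14.5 and E17.5. With 2.13% of genes called lower and 1.16% higher, Mt1 fell by 1.57 (SE 0.35, adjusted p = 0.0073) and Mt2 by 1.78 (SE 0.43, adjusted p = 0.014), and Cp rose by 2.70 ± 0.74 (adjusted p = 0.037), from 77.6, 165 and 338 CPM to 1202, 984 and 1587. The sets of the 2 days did not overlap in these 3 genes. Without E17.5 set 4 all 3 calls missed (adjusted p 0.057 for Mt1, 0.096 for Mt2 and 0.099 for Cp). That of Mt2 also missed without E14.5 set 2 (0.073) or E17.5 set 1 (0.054), and that of Cp without E14.5 set 1 or 2 or E17.5 set 1 or 3 (0.057 to 0.14). Atp7b (0.003 ± 0.211) was not called.

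Scale matters for Cp at E17.5. The median was 616 TPM in 34 cholangiocytes and 211 TPM in 35 DLK+ cells, while TMM-scaled sums of both types overlapped (984 to 1587 and 805 to 1492 CPM). TPM are shares of a cell's RNA, and hepatocyte markers summed to 327678 to 353306 CPM in DLK+ cells of that day. Macrophage markers summed to 19.4 to 43.9 CPM in E17.5 cholangiocytes and at most 12.0 in DLK+ cells, and dissociation stress genes to 406 to 635 and 297 to 390 CPM. Their part in the differences was not tested.

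The wider metal families also held calls between the cell types, where 35.0% of all genes were called. Of 18 other copper genes, 5 were higher and 9 lower in cholangiocytes with TMM (6 and 5 with library totals). Sod3, an extracellular superoxide dismutase (6.47 ± 1.56), and Heph, the membrane-bound relative of ceruloplasmin (5.64 ± 1.27), were higher, at 3.67 against 0.167 and 11.1 against 0.5682 CPM. Steap3 (-2.61 ± 0.27) and Cutal (-1.46 ± 0.29) were lower, as was the copper importer Slc31a1 (-1.27 ± 0.11), named after its value was seen. Of 12 Slc39 importers, 3 were higher and 4 lower (5 and 2 with library totals): Slc39a10 (2.04 ± 0.55) and Slc39a6 (1.42 ± 0.42) were higher and Slc39a5 (-1.56 ± 0.19) and Slc39a7 (-0.95 ± 0.16) lower. Of 8 Slc30 exporters, none was higher and 3 were lower, Slc30a10 (-2.56 ± 0.91), Slc30a6 (-0.82 ± 0.20) and Slc30a5 (-0.79 ± 0.17), all of which missed with library totals (1 higher, 0 lower). Among the other reported Mtf1 targets, Csrp1 (2.64 ± 0.27) and Slc39a10 were higher and Ndrg1 (-0.67 ± 0.14) lower, the last only with TMM. Of the other metallothioneins, Mt4 was lower (-4.06 ± 1.42) at 0.06996 against 1.003 CPM. Of 14 acute phase genes, 11 were lower and none higher (8 with library totals).

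In explants, EpCAM+ cells treated with TPPB had less Mt1, Mt2 and Cp than control cells. Mt1 stood at 5945, 3985, 4899 and 3146 CPM in control sets 1 to 4 and at 308 and 464 in TPPB sets 1 and 2. Mt2 stood at 1994, 1310, 1510 and 371 CPM in controls and at 59.7 and 138 with TPPB. Cp stood at 545, 561, 854 and 863 CPM in controls and at 4.47 and 0.0525 with TPPB (66 reads and 1 read). In all 3 genes both TPPB sums were below every control sum. Among the 8 genes, 6 had no overlap between TPPB and control sums, and 3 were called. The labels describe sets 1 and 2 apart from sets 3 and 4, and controls are in both, so the fit held a term for that division. Control sets 1 to 4 held 4, 8, 10 and 2 cells and the TPPB sets 10 and 12. Of the EpCAM+ cells, 22 of 24 controls and 22 of 22 TPPB cells carried the label cholangiocyte.

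**Figure D5:**
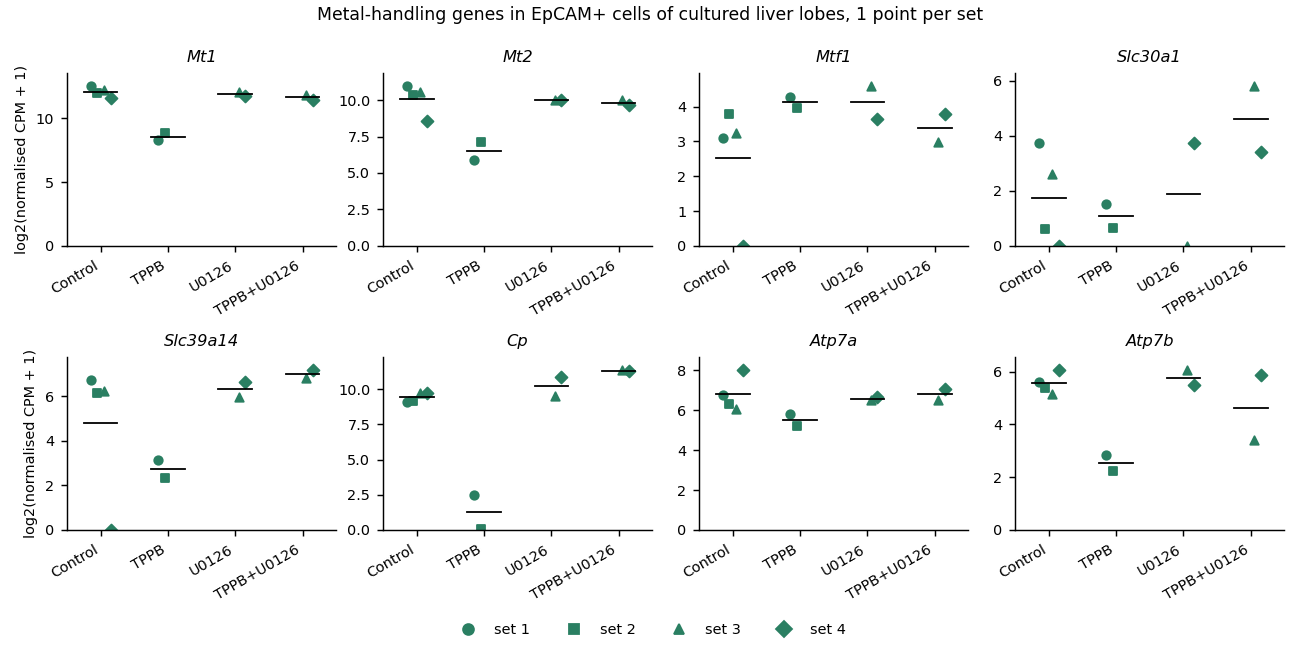
Level of each of the 8 genes, as log2(TMM-scaled CPM + 1), in sums of EpCAM+ explant cells by treatment, 1 point per set with a shape for each set number and a bar at the mean. Mt1 at 308 and 464 CPM, Mt2 and Cp are below all controls with TPPB alone, and with TPPB plus U0126 Mt1 and Mt2 overlap the controls and Cp lies above them.

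With 1.97% of 13749 genes called, and 1.89% called lower, 3 of the 8 genes were lower with TPPB and none higher. Mt1 was lower by -3.69 ± 0.47 (adjusted p = 0.0031), Mt2 by -4.06 ± 0.70 (adjusted p = 0.016) and Cp by -7.95 ± 1.36 (adjusted p = 0.016; n = 2 against 4 sums). Atp7b stood at 48.1, 41.1, 34.9 and 65.3 CPM in controls and at 6.23 and 3.72 with TPPB, without overlap, and its difference of -3.16 ± 0.86 had an adjusted p of 0.12. Slc39a14 (-3.88 ± 1.43, adjusted p = 0.27), Atp7a (-1.02 ± 0.59), Mtf1 (0.69 ± 1.43) and Slc30a1 (-2.35 ± 2.34) were not called. Library totals moved the median of all genes from 0.13 to 0.78 and kept Mt1 (-2.98, adjusted p = 0.012) and Cp (-7.34, adjusted p = 0.023), and Mt2 then had -3.35 (adjusted p = 0.05). Without control set 1, Cp (-7.97, adjusted p = 0.053) and Mt2 (-3.72, adjusted p = 0.074) missed, as did Mt2 without TPPB set 1 (-3.59, adjusted p = 0.078). Among cells labelled cholangiocyte alone Mt2 missed (-4.27, adjusted p = 0.073), and in a fit on sets 1 and 2 alone, the only sets with TPPB alone, Cp missed (-7.97, adjusted p = 0.087).

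Per cell, the median of Mt1 with TPPB lay below the lowest control cell. The median of Mt1 was 14703 TPM in 24 control cells (1182 to 42670) and 979 TPM in 22 TPPB cells (314 to 14046). The ranges thus overlapped from 1182 to 14046 TPM, close to the control median. The median of Mt2 was 4141 and 185 TPM. Cp had reads in all 24 control cells and none in 16 of 22 TPPB cells. Atp7b lacked reads in 1 control cell and 19 TPPB cells, and Slc39a14 in 3 and 15. In the same sums, hepatocyte markers stood at 67098 to 208398 CPM in controls and 378 to 1792 with TPPB, acute phase genes at 26124 to 55195 and 158 to 205, and cholangiocyte markers at 288 to 7269 and 11494 to 12502. Of 15 acute phase genes, 9 were lower and none higher with TPPB, and of 7 hepatocyte markers, 6 were lower. Erythroid markers summed to 731 CPM in TPPB set 2 and 2.37 in TPPB set 1, against 10.97 to 40.75 in controls. Their part in the metal gene differences was not tested. Dissociation stress genes lay at 1717 to 3286 CPM in controls and 1259 to 3014 with TPPB.

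Neither U0126 comparison called any of the 8 genes. Against control, edgeR called no gene with U0126 (0% of 13749; 288 at an unadjusted p under 0.05, 33 by DESeq2), and Mt1 (4185 and 3429 CPM in sets 3 and 4) differed by -0.08 ± 0.42, Mt2 (1009 and 1032) by 0.12 ± 0.615 and Cp (741 and 1842) by 0.59 ± 1.00. TPPB plus U0126 against U0126 gave no call either (0% of 13749; 249 at an unadjusted p under 0.05, 30 by DESeq2). There Mt1 (3743 and 2783 CPM with both) differed by -0.22 (95% interval -1.17 to 0.73), Mt2 (1003 and 813) by -0.17 and Cp (2614 and 2484) by 0.98 (-1.27 to 3.23). With both agents Mt1 overlapped the controls and both Cp sums were above them. Per cell, the median of Cp was 725 TPM with both agents (9 cells) and 415 with U0126 (15 cells). These comparisons share control or U0126 sums with those above, and their values are set side by side only.

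The TPPB difference itself was compared with and without U0126, a comparison added after the data were seen. With 1.06% of genes called higher, the difference with U0126 minus that without was 3.46 ± 0.62 for Mt1 (adjusted p = 0.030) and 8.93 ± 1.64 for Cp (adjusted p = 0.035). It was 3.89 ± 0.90 for Mt2, which was not called (adjusted p = 0.096). The estimated TPPB differences of Mt1 and Mt2 were thus less negative with U0126 present, and that of Cp was positive. None of these differences with U0126 present was called. Both calls missed without control set 1 (adjusted p = 0.11 for each), control set 2 (0.05 and 0.08), TPPB plus U0126 set 3 (0.057 and 0.068), U0126 set 3 (0.086 and 0.14) or U0126 set 4 (0.08 and 0.056). That of Mt1 also missed without TPPB set 1 (0.079), and that of Cp without control set 3 or 4 (0.056 for each) or TPPB plus U0126 set 4 (0.073). With library totals neither was called (2.63, adjusted p = 0.12, for Mt1 and 8.22, adjusted p = 0.054, for Cp), and Mt1 also missed among cells labelled cholangiocyte alone (0.12). TPPB alone was used in sets 1 and 2 and U0126 in sets 3 and 4, so a response to TPPB that differs with U0126 and one that differs between these sets cannot be told apart.

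Few other metal genes were called with TPPB, where 1.97% of all genes were. None of 7 Slc30 exporters, 16 copper genes and 5 other reported Mtf1 targets passed edgeR's test, and 1 of 12 Slc39 importers was lower, Slc39a5 (-5.69 ± 1.11, adjusted p = 0.03; 0.054 with library totals). The medians of these lists were -0.89 for Slc30 and -0.25 for Slc39, -0.42 for the copper genes and -0.88 for the Mtf1 targets, beside 0.13 over all genes, and with library totals those of Slc39 (0.35) and the copper genes (0.27) turned. Summed Slc39 levels were 554 and 438 CPM with TPPB and 882 to 1085 in controls. Copper genes summed to 1009 and 874 against 1572 to 2105 CPM, and Mtf1 targets to 262 and 274 against 839 to 1175. Slc30 sums overlapped (202 and 144 against 83.7 to 353). The sums were not tested. At an adjusted p under 0.10 lay Steap4 (-4.02 ± 0.95, adjusted p = 0.073) and Ndrg1 (-3.24 ± 0.82, adjusted p = 0.096), both named after their values were seen.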

How the data were processed

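Gene counts per bulk library and per cell were deposited by the authors as raw whole numbers, with each gene's length beside them; other columns were not used. Per the submitters' processing notes, the tools were TopHat2 2.1.0, Bowtie2 and HTSeq 0.6.0 with GRCm38/mm10. Bulk libraries were poly(A) selected and cells were prepared with Smart-seq2 and spike-ins, per the labels' protocols. Whether counting used strand is not given in the sources used here.

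The 92 spike-ins were left out. Cells were summed by group and set where at least 2 cells shared both (443 of 447 embryo cells, 42 sums, 10 EpCAM+ and 2 DLK+ explant sums). Tests used edgeR 4.0.16 in R 4.3.3, with TMM factors, a filter at a minimum count of 10, quasi-likelihood fits over all groups of a data set and an adjusted p under 0.05. The explant fit had a term for sets 1 and 2 against sets 3 and 4. DESeq2 1.42.0, DESeq2-style (RLE) factors, library totals, no filter, a replicate block, removal of the trend on GC content, sums of at least 4 cells and each library left out were tried as alternatives. Library totals and the fits on 1 division of the explant sets were chosen after seeing the data. With an embryo sum left out, the gene filter and dispersion trend of the full fit were kept. The 2 bulk libraries of a day differed by 8.26 to 64.2 times the sampling noise (chi-square per degree of freedom), so none was counted as a repeat. TPM were computed from the counts and the deposited gene lengths.

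The scripts were tested on simulated counts with 200 changed genes. The 8 genes and the other gene lists were chosen with earlier results of these data known. All 8 were named in every comparison. From each list at most 4 called genes with the largest change were named, and, as likeness, the 3 genes with the highest Pearson r of log2(CPM + 1) with Mt1, Mt2 and Cp over the bulk libraries. Intervals are at 95%. In bulk, counting error alone is thus smaller than the spread between libraries.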

Additional observations from a re-analysis of the deposited data

Results flagged for a closer look

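Mtf1 in set 1 of the E17.5 DLK+ cells stood at 11.78 CPM, apart from the other 3 sets at 11.22 to 11.27 CPM, with a gap of 0.92 of the group's range. The set is set apart by how closely the others lie together, and the largest difference is small beside those between days. It is the only such sample among 16 tests of a gene in a group of sets, and chance gives about 1 in 20.

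With TPPB alone Mt1 was lower than in controls (-3.69 on the log2 scale), as was Cp (-7.95). With U0126 present the TPPB difference was called for neither gene. It stood above that without U0126 by 3.46 for Mt1 and by 8.93 for Cp. Both shifts were found by testing the difference between the effects. Neither was called with library totals or without control set 1. TPPB alone was used in sets 1 and 2 and U0126 in sets 3 and 4, so the agent and the division of the sets cannot be told apart.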

How the results depend on the processing

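Of 56 calls of a member gene in the tests, 55 were kept with DESeq2, 55 without the filter, 52 with RLE factors and 36 with library totals. Library totals turned 2, both in bulk at E18.5 against E10.5: Atp7b to -0.57 and Slc30a1 to -0.084. They gave 5 member calls for cholangiocytes against DLK+ cells by day, of which 2 were among the calls with TMM (Mt1 at E15.5 and E17.5) and 3 were not, and 0 for the TPPB effect with U0126 minus without. Without the filter on low counts there were 26 member calls over the bulk day steps, 5 for TPPB, 4 for the TPPB effect with U0126 minus without and 2 in the E14.5 EpCAM+ gate, where RLE factors gave 0. DESeq2 gave 11 over the DLK+ steps. Cells labelled cholangiocyte alone gave 1 for the TPPB effect with U0126 minus without. Leaving out 1 library or sum kept 302 of 381 calls. The member calls then ranged from 1 to 4 for TPPB, 0 to 3 for its effect with U0126 minus without, 0 to 1 for U0126, 0 to 4 for cholangiocytes at E17.5 against E14.5 and 1 to 2 in the E14.5 gate.

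Embryo sets of the same number deviated together little, with r of -0.006 to 0.087 over 8 pairs. Pairs of other numbers had r of -0.064 to 0.067 (22 pairs). In bulk, 9 of 36 pairs were over 0.1. These few pairs cannot settle whether sets of the same number share a source. A replicate block kept 47 of 51 calls and lost Atp7b in cholangiocytes at E14.5 (adjusted p = 0.13), at E15.5 (0.11) and in the E14.5 gate (0.093) and Cp at the bulk E17.5 step (0.059). It moved the calls over all genes from 2320 to 1264 for cholangiocytes at E15.5 and from 209 to 127 for DLK+ cells at E15.5. Over all genes, removing the GC trend gave 251 calls in place of 2214 at E13.5 and 516 in place of 4100 at E14.5 in bulk. DESeq2 and no filter gave 433 and 835 in place of 72 at E12.5, 401 and 755 in place of 33 at E15.5, and 7 and 323 in place of 0 at E16.5. Library totals gave 3392 in place of 2001 at E17.5 in bulk, 8012 in place of 4960 for DLK+ cells E17.5 against E10.5, 393 in place of 209 and 2918 in place of 1014 for their last steps, and 7181 in place of 3994 for cholangiocytes at E17.5. DESeq2 gave 614, 254, 654 and 1591 in place of 372, 75, 209 and 1014 for the DLK+ steps, 1098 in place of 553 for cholangiocytes E17.5 against E14.5, and 71 in place of 4 for EpCAM+ against DLK+ hepatoblasts (15 without the filter). For explants DESeq2 and no filter gave 1090 and 856 in place of 271 for TPPB (519 with no term for the division of the sets), 732 and 695 in place of 152 for its effect with U0126 minus without (98 with library totals), 33 and 86 in place of 0 for U0126 and 30 and 52 in place of 0 for TPPB plus U0126 against U0126. Explant sums of 2 to 12 cells and 2 sums in 3 of the 4 arms limit the precision there.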

Other observations

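A few EpCAM+ cells of E11.5 to E13.5 already carried the label cholangiocyte, and with 1 sum a day, of set 2, they enter no test. At E13.5 these were 10 cells of 2 sets, of which 9 were summed. Mt1 stood at 6560 CPM in the 2 cells of E11.5, at 6433 in the 3 cells of E12.5 and at 6582 in those 9 cells of E13.5. Mt2 stood at 1671, 2266 and 2338 CPM and Cp at 0, 30.1 and 145 CPM on these days. These Mt1 levels are above every cholangiocyte sum from E14.5 onwards.

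DLK+ cells of the explants were too few for a test, with 6 cells of 1 set with TPPB and 6 cells of 2 sets in the control. The median per cell of Mt1 was 5967 TPM with TPPB (1879 to 22042) and 3314 TPM in the control (2358 to 13522). The median of Mt2 was 764 and 399 TPM and that of Cp 764 and 455 TPM.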
